A study of Mus musculus with 9 samples.

Results

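The genes described here are 10 imprinted genes of the mammalian growth network: H19, Igf2, Dlk1, Meg3, Peg3, Plagl1, Cdkn1c, Ndn, Grb10 and Mest. They were chosen by symbol, and all 10 were found among the 55488 genes listed for each library. RNA was sequenced in 9 libraries of sorted cells from fetal livers of C57BL/6 mice at embryonic day 14.5, with 3 libraries in each of 3 groups and 100 cells per library. Evi1 HSC libraries held GFP+ cells in a gate for haematopoietic stem cells (HSC), positive for CD150, c-Kit and Sca-1 and negative for CD48 and lineage markers, from embryos of genotype Tie2-Cre::ROSA-Evi1. Tie2-Cre acts in the endothelium and in blood, so it switches on the ROSA-Evi1 allele in both lineages. Evi1, a transcription factor with zinc fingers, is encoded at Mecom. WT HSC libraries were sorted through that gate without selecting for GFP, from ROSA-Evi1 embryos without Cre. WT KL libraries held c-Kit+Sca-1-Lin- cells, a gate of committed progenitors, from ROSA-Evi1 embryos. The ROSA-Evi1 allele was thus carried by every group, the controls included. No label says whether the libraries of a group came from separate embryos, so the p-values reflect no more than the spread among these libraries, which may be technical.

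An imprinted gene is expressed mainly from the allele inherited from 1 parent, because DNA methylation set in the egg or the sperm marks its control region. Igf2, Dlk1, Peg3, Plagl1, Ndn and Mest are expressed from the paternal allele, and H19, Meg3, Cdkn1c and, in most tissues, Grb10 from the maternal allele. The network sets fetal growth: IGF2 is a growth factor of the fetus, while CDKN1C stops the cell cycle and GRB10 damps insulin and IGF receptors. In blood, the H19-Igf2 and Dlk1-Meg3 domains and the genes Cdkn1c and Ndn are known for their part in keeping stem cells long-lived and slow to divide. The libraries were not split by allele, so all values below are totals over both alleles.

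Expression was deposited as TPM, a share of all transcripts scaled by gene length, so levels of different genes in a library can be set side by side. The read depth behind a TPM is unknown. Between 18258 and 18806 genes reached 1 TPM in 6 libraries, and 15422 to 15819 in WT HSC-labelled library 3 and in WT KL libraries 2 and 3. Mecom stood at 209, 176 and 210 TPM in Evi1 HSC libraries 1, 2 and 3, at 161 and 114 TPM in WT HSC libraries 1 and 2, and at 0.0107 and 0.325 TPM in WT KL libraries 2 and 3. WT HSC-labelled library 3 held 0.0167 TPM of Mecom and WT KL-labelled library 1 held 90.8 TPM, each against its label. Ly6a (Sca-1, the gate antigen), the stem cell factor gene Hlf and the myeloid gene Mpo went against the same 2 labels: Ly6a was listed at 0 and 19.7 TPM, Hlf at 0.631 and 164 TPM, and Mpo at 579 and 13.6 TPM, in that order. Egfp read 23.4 to 27.3 TPM in the Evi1 HSC libraries and at most 0.38 TPM in the other 6. Summed over 10 stem cell markers, the level was 726 to 880 TPM in 6 libraries, including WT KL-labelled library 1, and 8.32 to 10.9 TPM in the other 3. Libraries are numbered by replicate, and these 2 are written below as WT HSC-labelled library 3 and WT KL-labelled library 1. The tests are therefore given over the 9 libraries as labelled and over the 7 libraries left without those 2. Those 2 were set aside by the expression of stem cell and progenitor genes, whose pattern several of the 10 genes share. The p-values over 7 libraries do not account for that selection. No library was moved to another group.

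H19 and Igf2 lie next to each other on mouse chromosome 7 and share enhancers and a methylated control region. H19, at chr7:142575529-142578143 on the minus strand of mm10 (GRCm38, GENCODE M21), makes a long noncoding RNA that is also the precursor of a microRNA. It was the most abundant of the 10 genes in every library with a stem cell profile: 215, 252 and 465 TPM in Evi1 HSC libraries 1, 2 and 3, and 291 and 394 TPM in WT HSC libraries 1 and 2. WT KL libraries 2 and 3 held 7.78 and 6.02 TPM. WT HSC-labelled library 3 held 9.86 TPM, and WT KL-labelled library 1 held 323 TPM. The Evi1 HSC and WT HSC values thus overlapped once the 2 libraries were set aside, and both lay far above WT KL. By rank, H19 stood between 91st and 217th among all listed genes in those 6 libraries, and between 7136th and 8940th in the other 3.

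Igf2, at chr7:142650766-142666816 on the minus strand, 72622 bases from H19, encodes the fetal growth factor IGF2. It was at 31.4, 48.0 and 88.5 TPM in Evi1 HSC libraries 1, 2 and 3, and at 46.1 and 56.7 TPM in WT HSC libraries 1 and 2. WT KL libraries 2 and 3 held 0.0502 and 0.061 TPM, WT HSC-labelled library 3 held 0.0906 TPM, and WT KL-labelled library 1 held 54.2 TPM. Igf2 therefore split the libraries as H19 did, with near-zero values on the low side where H19 kept a residual level. The ratio of H19 to Igf2 ran from 5.25 to 6.94 in the 6 libraries with both genes high, and from 98.7 to 155 in the other 3. Of the 5723 exonic bases of Igf2, 3596 are shared with Gm49394 on the same strand, so the authors' counting could have divided reads between them. Gm49394 was listed at 25.8 to 75.1 TPM in the libraries with high Igf2 and at 0.108 to 0.181 TPM in the other 3, and the call for Igf2 is uncertain in size to that extent.

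The microRNAs of this domain are shown because they are made from the same transcripts and carry their own targeting seeds. RefSeq (GRCm38.p6) places both mature products of Mir675 in an exon of H19 and both of Mir483 in an intron of Igf2. Each is printed from its 5′ end, with the seed, bases 2 to 8, in capitals.
mmu-miR-675-5p: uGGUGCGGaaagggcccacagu
mmu-miR-675-3p: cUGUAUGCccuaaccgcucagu
mmu-miR-483-5p: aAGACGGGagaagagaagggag
mmu-miR-483-3p: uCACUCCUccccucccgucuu
No seed was shared among these or with the other miRNAs hosted by the 10 genes, which have 9 mature sequences from 5 hairpins in 4 hosts. Mature miRNAs were not measured in these libraries. The precursor row Mir675 read 14.6, 13.9 and 24.3 TPM across the Evi1 HSC group, at 35.0 and 37.5 TPM in WT HSC libraries 1 and 2, and at 0.655 and 0.435 TPM in WT KL libraries 2 and 3. Those reads come from bases that H19 also covers on the same strand, so they do not show a separate product.

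**Figure D1:**
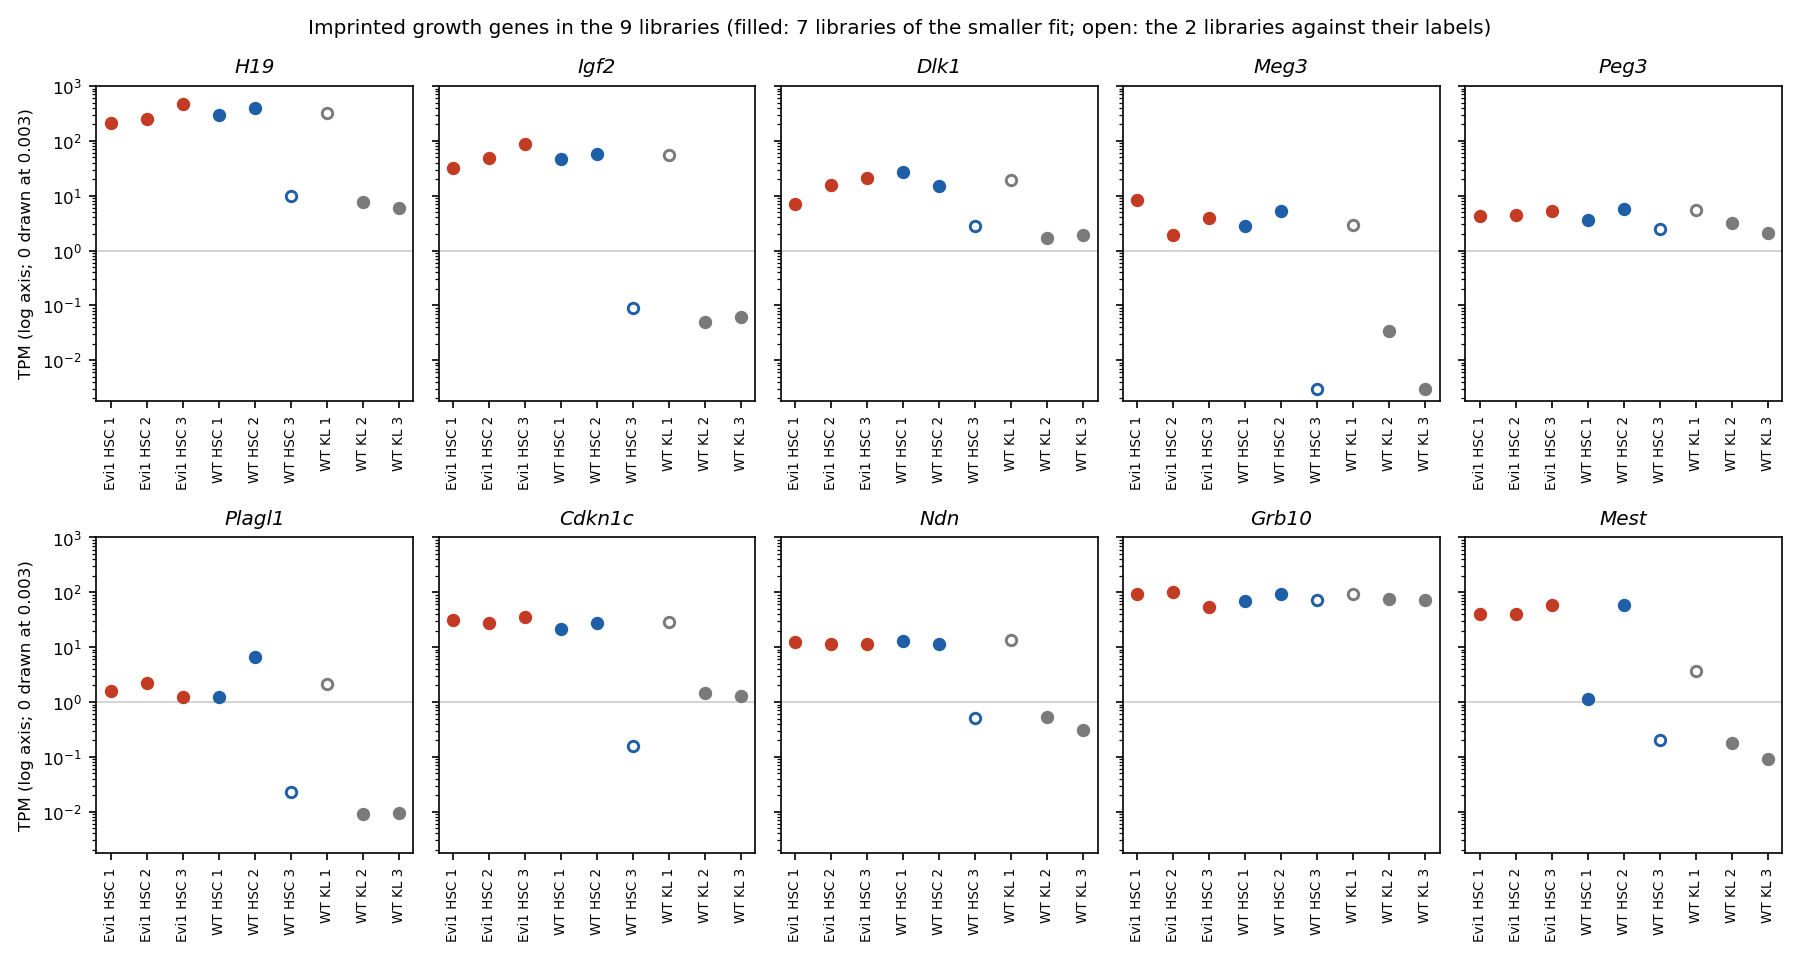
TPM (log axis) of each of the 10 genes in the 9 libraries, 1 point per library, with WT HSC-labelled library 3 and WT KL-labelled library 1 drawn open. H19, Igf2, Dlk1, Meg3, Plagl1, Cdkn1c and Ndn were high in the Evi1 HSC libraries, WT HSC libraries 1 and 2 and WT KL-labelled library 1, while Grb10 lay between 54.9 and 99.7 TPM in every library.

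Dlk1 and Meg3 form the second imprinted pair, on chromosome 12. Dlk1, at chr12:109452823-109463336 on the plus strand, encodes a transmembrane protein of the Notch ligand family that marks fetal progenitors. It was at 7.11, 15.7 and 21.2 TPM in Evi1 HSC libraries 1, 2 and 3, at 27.5 and 14.9 TPM in WT HSC libraries 1 and 2, and at 1.72 and 1.92 TPM in WT KL libraries 2 and 3. In the 2 libraries against their labels, WT HSC 3 and WT KL 1, it read 2.84 and 19.6 TPM. Its mean in Evi1 HSC was 14.7 ± 7.12 TPM (SD, n = 3), with replicate 1 the lowest of the Evi1 HSC libraries but still above WT KL libraries 2 and 3. Evi1 HSC and WT HSC libraries 1 and 2 overlapped.

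Meg3, at chr12:109541001-109571726 on the plus strand, 77664 bases beyond Dlk1, makes a long noncoding RNA from the other parental allele. It was at 8.49, 1.89 and 3.97 TPM in Evi1 HSC libraries 1, 2 and 3, at 2.83 and 5.29 TPM in WT HSC libraries 1 and 2, and at 0.034 and 0 TPM in WT KL libraries 2 and 3. WT HSC-labelled library 3 and WT KL-labelled library 1 held 0 and 2.95 TPM. The HSC groups overlapped. Evi1 HSC library 1, with the most Meg3, had the least Dlk1 of its group, and the ratio of Dlk1 to Meg3 in Evi1 HSC was 0.838, 8.32 and 5.35. Rian, the noncoding RNA downstream of Meg3 on the same strand, was far more abundant, at 23.2, 39.3 and 47.9 TPM in the Evi1 HSC group and 49.4 and 38.3 TPM in WT HSC libraries 1 and 2. It fell away to 0.0761 and 0.00441 TPM in WT KL libraries 2 and 3. The ratio of Rian to Meg3 ranged from 2.73 to 20.8 in the 6 libraries where both were expressed, a wider range than that of H19 to Igf2 there. Meg3 was at 1.89 to 8.49 TPM in these libraries, and the part of sampling noise at that level was not tested. Mirg and Rtl1, also of this domain, were at 0.941 to 3.68 TPM and 1.02 to 2.26 TPM in those 6 libraries. Both stood at 0.0696 TPM or less in the other 3. Of the 18089 exonic bases of Meg3, 1228 are shared with Gm26906 on the opposite strand, and the sources used here do not say whether strand was used in counting.

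**Figure D2:**
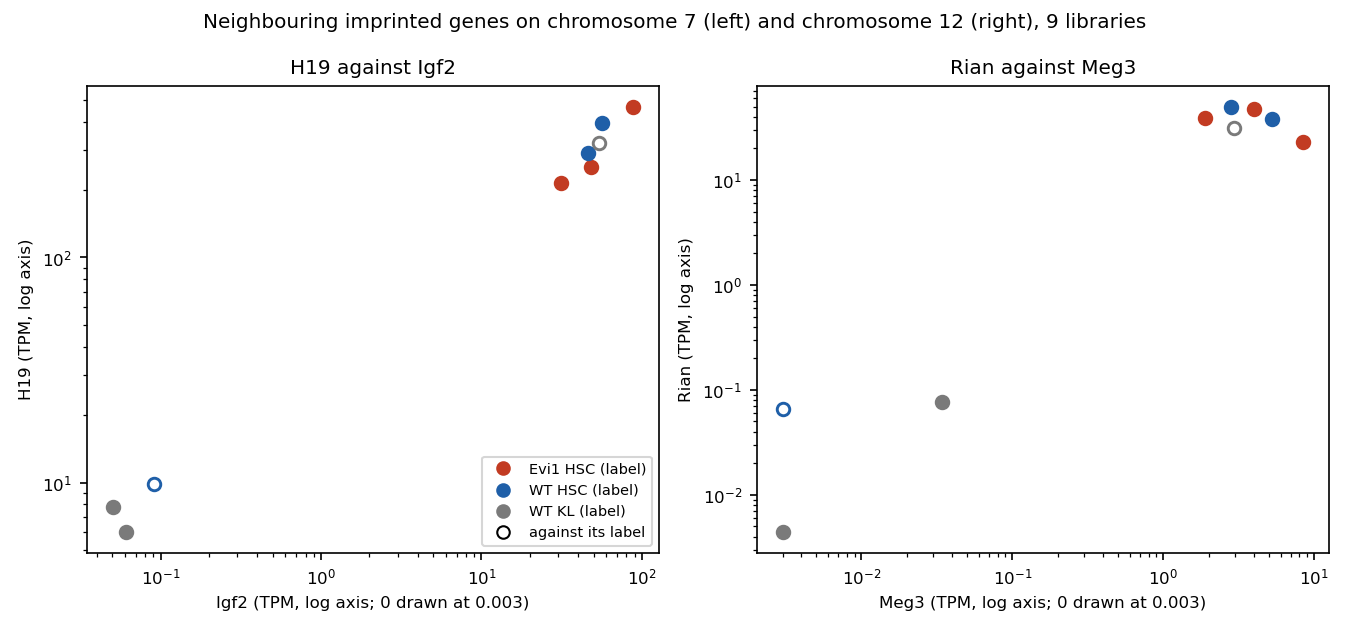
Left, H19 against Igf2; right, Rian against Meg3 (TPM, log axes, values of 0 drawn at 0.003), 1 point per library. H19 and Igf2 rise along a line among the 6 high libraries, with ratios of 5.25 to 6.94, whereas Rian and Meg3 scatter, with ratios of 2.73 to 20.8.

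Cdkn1c, at chr7:143458339-143461050 on the minus strand, encodes the cyclin-dependent kinase inhibitor p57, which is known to hold stem cells out of the cell cycle. It was at 30.8, 27.1 and 35.5 TPM in Evi1 HSC libraries 1, 2 and 3, and at 21.7 and 27.8 TPM in WT HSC libraries 1 and 2. WT KL libraries 2 and 3 held 1.44 and 1.29 TPM, and WT HSC-labelled library 3 and WT KL-labelled library 1 held 0.16 and 28.7 TPM. The Evi1 HSC range thus overlapped WT HSC by a narrow margin. Cdkn1c shares 625 of 2039 exonic bases with the antisense gene Gm44732, so its level is uncertain if strand was not used.

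Ndn, at chr7:62346569-62350262 on the plus strand, encodes necdin, a MAGE family protein that restrains proliferation. It was the steadiest of the genes that differed between HSC and KL: 12.5, 11.3 and 11.2 TPM in the Evi1 HSC group, 13.1 and 11.5 TPM in WT HSC libraries 1 and 2, and 0.523 and 0.314 TPM in WT KL libraries 2 and 3. Against their labels, libraries WT HSC 3 and WT KL 1 held 0.501 and 13.7 TPM. Its SD within Evi1 HSC was 0.72 TPM on a mean of 11.7 TPM (n = 3).

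Peg3 and Plagl1 encode zinc finger proteins, and PLAGL1 is known to bind control regions of other genes of this network. Peg3, at chr7:6703892-6730431 on the minus strand, was present throughout, at 4.25, 4.53 and 5.22 TPM in the Evi1 HSC group, 3.61 and 5.71 TPM in WT HSC libraries 1 and 2, and 3.15 and 2.08 TPM in WT KL libraries 2 and 3. In the 2 libraries against their labels, WT HSC 3 and WT KL 1, it read 2.51 and 5.55 TPM. The Evi1 HSC libraries and WT HSC libraries 1 and 2 all lay above WT KL libraries 2 and 3, by a small margin.
Plagl1, at chr10:13060504-13131694 on the plus strand, had the lowest mean of the 10 in Evi1 HSC. It read 1.62, 2.18 and 1.23 TPM across the Evi1 HSC group, 1.22 and 6.70 TPM in WT HSC libraries 1 and 2, and 0.0091 and 0.00948 TPM in WT KL libraries 2 and 3. WT HSC-labelled library 3 and WT KL-labelled library 1 held 0.023 and 2.10 TPM. WT HSC library 2 thus lay well above all other libraries for Plagl1.

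Grb10, at chr11:11930508-12038683 on the minus strand, encodes an adaptor protein that binds activated insulin and IGF receptors and dampens their signal. It was the exception among the abundant genes, at 92.7, 99.7 and 54.9 TPM in the Evi1 HSC group, 69.3 and 91.5 TPM in WT HSC libraries 1 and 2, and 75.5 and 71.9 TPM in WT KL libraries 2 and 3. Against their labels, libraries WT HSC 3 and WT KL 1 held 71.8 and 93.6 TPM. All groups overlapped, and Grb10 alone made up most of the summed level of the 10 genes in WT KL libraries 2 and 3, where that sum was 90.4 and 83.7 TPM. In Evi1 HSC the sum was 445, 503 and 745 TPM, and H19 held 48.4 to 62.4% of it.

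Mest, at chr6:30723547-30748465 on the plus strand, encodes a protein of the hydrolase fold family known from mesoderm and growing fat tissue. Of the 10 genes it parted WT HSC libraries 1 and 2 most widely. Evi1 HSC libraries 1, 2 and 3 held 40.8, 40 and 58.5 TPM. WT HSC library 1 held 1.13 TPM and WT HSC library 2 held 58.4 TPM. WT KL libraries 2 and 3 held 0.182 and 0.0912 TPM, WT HSC-labelled library 3 held 0.207 TPM, and WT KL-labelled library 1 held 3.63 TPM. Mest was therefore high in 4 libraries only, and it stood at an intermediate level in WT HSC library 1 and in WT KL-labelled library 1. Its neighbour Copg2, which shares 912 of the 3945 exonic bases of Mest on the opposite strand, was at 19.8 to 43.0 TPM in all 9 libraries. An intron of Mest holds the hairpin of miR-335 (RefSeq, GRCm38.p6), whose main mature strand is shown with its seed in capitals because it shares the host transcript. It was not measured.
mmu-miR-335-5p: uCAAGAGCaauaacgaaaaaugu

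Several endothelial markers were lower in WT HSC library 1 than in WT HSC library 2, as Mest was. Stab2, a scavenger receptor of liver sinusoid endothelium, read 10, 10.8 and 10.5 TPM across the Evi1 HSC group, 0.175 and 8.26 TPM in WT HSC libraries 1 and 2, and 0.58 TPM in WT KL-labelled library 1. Lyve1, a hyaluronan receptor of sinusoid and lymphatic endothelium, was at 13, 10 and 9.13 TPM, 0.393 and 8.58 TPM, and 3.31 TPM in the same libraries, and was listed at 0 in WT KL libraries 2 and 3. Kdr and Flt1, receptors for VEGF, were likewise lower in WT HSC library 1 (1.31 and 0.15 TPM) than in WT HSC library 2 (9.24 and 1.13 TPM). So were Cdh5 and Plvap, at 4.76 and 1.61 TPM against 14.8 and 4.49 TPM. In WT KL-labelled library 1, Kdr was at 3.28 TPM beside 4.87 to 6.91 TPM in Evi1 HSC, a smaller gap than that of Mest. Pecam1 did not share the split, at 30.0 and 40.9 TPM in the 2 WT HSC libraries, and Egfl7 ran the other way, at 346 and 139 TPM. Summed over the 8 endothelial markers of the list, the level was 311 to 705 TPM in the Evi1 HSC group, 385 and 226 TPM in WT HSC libraries 1 and 2, and 16.4 and 19.5 TPM in WT KL libraries 2 and 3, with Egfl7 as the largest term. No endothelial marker was called between Evi1 HSC and WT HSC, where 0.00514% of all genes were called over 9 libraries and 0.206% over 7. Over 7 libraries 8 of 8 had a fitted difference above 0, with a median of 0.53 (log2) beside 0.00 over all genes tested. The WT HSC side of that median rests on 2 libraries, which differed for Stab2, Lyve1, Kdr and Flt1 as given above. The split was not confined to endothelial markers. Among imprinted genes, picked after their values were seen, Peg10 and Asb4 were lower in WT HSC library 1 (4.28 and 0.186 TPM) than in WT HSC library 2 (10.2 and 1.42 TPM). Sgce ran the other way, at 13.2 and 7.35 TPM. The part of endothelial RNA in the level of Mest was not tested.

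**Figure D3:**
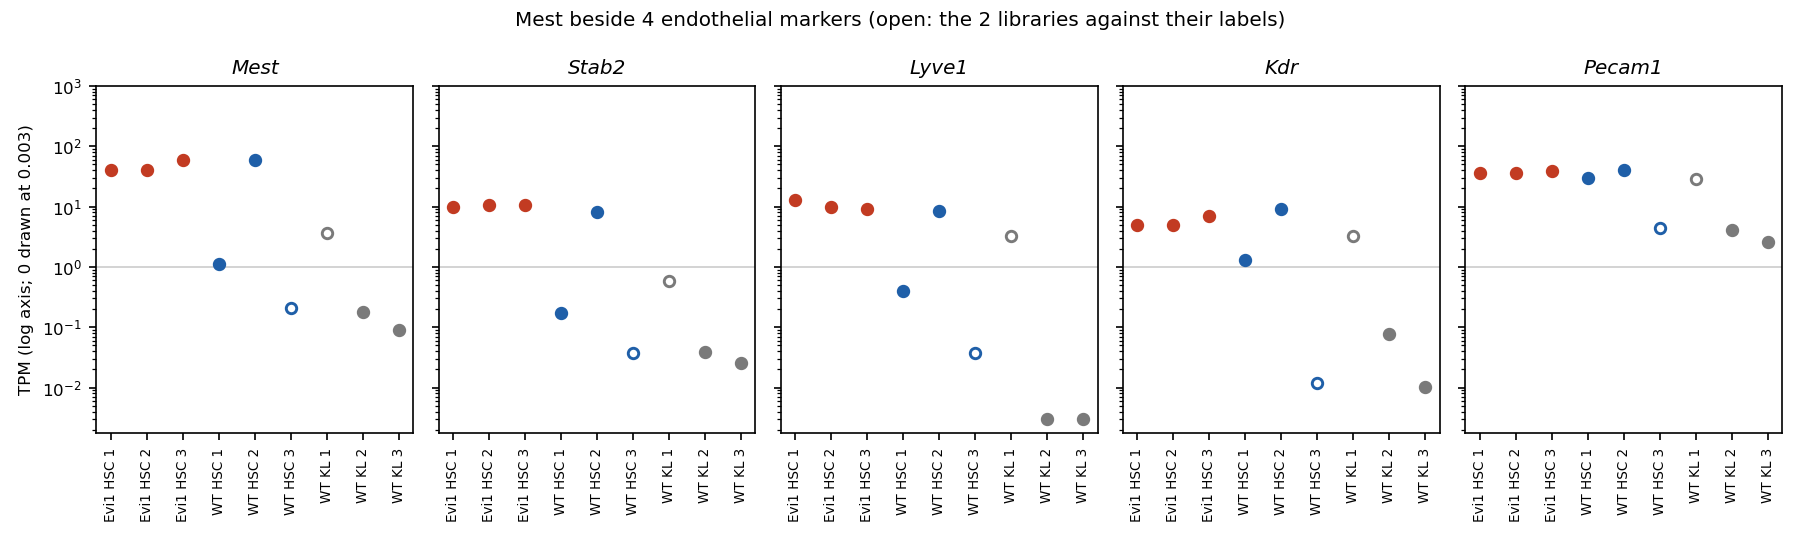
TPM (log axis, values of 0 drawn at 0.003) of Mest and of the endothelial markers Stab2, Lyve1, Kdr and Pecam1, 1 point per library. Mest, Stab2, Lyve1 and Kdr were all lower in WT HSC library 1 than in WT HSC library 2 (Mest 1.13 against 58.4 TPM), while Pecam1 stayed at 30.0 and 40.9 TPM.

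In the order of mean level within Evi1 HSC (n = 3 each), H19 came first at 311 ± 135 TPM (SD), followed by Grb10 at 82.4 ± 24.1, Igf2 at 56.0 ± 29.4, Mest at 46.4 ± 10.5 and Cdkn1c at 31.2 ± 4.21 TPM. Dlk1 at 14.7, Ndn at 11.7, Meg3 at 4.78, Peg3 at 4.66 and Plagl1 at 1.67 TPM came after. Neighbours whose ranges overlapped were Grb10 and Igf2, Igf2 and Mest, Dlk1 and Ndn, and Meg3 and Peg3. The other neighbouring pairs did not overlap. In WT KL libraries 2 and 3 the order was different, with Grb10 first and Igf2, Meg3 and Plagl1 all at 0.061 TPM or less.

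The first comparison, Evi1 HSC against WT HSC, asks whether ectopic Evi1 goes with another level of these genes in cells of the same surface gate. Differences are of mean log2(TPM + 1), fitted with limma over all 19461 genes that reached 1 TPM in at least 3 libraries, and called at a Benjamini-Hochberg adjusted p under 0.05. All 10 genes passed that filter, but Igf2, Meg3, Plagl1, Ndn and Mest passed through the same 6 libraries, the others being below 1 TPM. Over 9 libraries 0 of the 10 were called, with limma adjusted p from 0.791 to 0.99. At an unadjusted limma p under 0.05 only Mest passed, with a difference of 3.13 (unadjusted 0.042), while 907 of all 19461 genes passed. The background was 0.00514% of all genes called. That was 1 gene, Egfp, the reporter by which the Evi1 HSC cells were sorted. Over 7 libraries 0 of the 10 were called again, where 40 genes, or 0.206%, were called. None of the 10 had an unadjusted limma p under 0.05, while 1635 of all genes did. The count of 40 fell to 5 without WT HSC library 1, and to 6 without WT KL library 2 or 3. It was 12, 13 and 20 without Evi1 HSC libraries 2, 3 and 1, and 27 without WT HSC library 2.

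Over 7 libraries the fitted differences lay close to 0 for the growth factor and its neighbour. Igf2 differed by 0.00 with a 95% confidence interval from -0.92 to 0.93 (limma adjusted p = 1), and H19 by -0.21, from -0.99 to 0.58 (limma adjusted p = 0.925). The narrowest intervals were those of Ndn, -0.07 (-0.47 to 0.33), and Cdkn1c, 0.32 (-0.11 to 0.75). Grb10 and Peg3 differed by 0.00 (-0.63 to 0.63) and 0.02 (-0.55 to 0.59). Dlk1 at -0.56 (-1.62 to 0.50), Plagl1 at -0.64 (-1.81 to 0.52) and Meg3 at 0.07 (-1.09 to 1.22) were less precisely set. The median of the 10 was 0.00, beside 0.00 over all genes tested.

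Mest had the widest interval of the 10, with a fitted difference of 2.05 from -0.79 to 4.90 (limma adjusted p = 0.713). The value rested on which WT HSC library was kept. Without WT HSC library 2 the difference was 4.45 and was called (limma adjusted p = 0.025), and without WT HSC library 1 it was -0.35 (limma adjusted p = 0.882). In these fits the 1 WT HSC library left is assumed to vary as the libraries of the other groups do.

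The second comparison, WT HSC against WT KL, sets stem cells against committed progenitors of the same genotype. Over the 9 libraries as labelled 0 of the 10 genes were called, with limma adjusted p from 0.963 to 0.979, and 0.00514% of all genes were called. None of the 10 had an unadjusted limma p under 0.05, and 282 of all 19461 genes did. Over 7 libraries H19, Igf2, Cdkn1c, Ndn, Dlk1, Meg3 and Plagl1 rose in WT HSC, 7 of 10, and none fell. Of these, Igf2, Ndn, Meg3 and Plagl1 passed the filter only through libraries where they were high, so the count is a description only. The background was high, with 37.5% of all genes called in either direction and 26.7% higher in WT HSC. That split depended on scaling: 5203 genes were higher and 2104 lower, against 3005 and 5211 after each library was centred on its median, which moved the median difference of all genes from 0.256 to -0.221. The median difference of the 10 genes was 3.07, beside 0.26 over all genes tested. With bulk RNA, fewer cells of a type that expresses a gene and less of its RNA per cell cannot be told apart. On this scale the change of genes near 0 TPM is understated.

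By size, Igf2 differed by 5.63 (SE 0.43, limma adjusted p = 0.00022) and H19 by 5.43 (SE 0.36, limma adjusted p = 0.00014) between WT HSC and WT KL. The group means of H19 were 342 ± 72.5 TPM (SD, n = 2) and 6.90 ± 1.24 TPM (SD, n = 2). Cdkn1c, the cell cycle inhibitor, differed by 3.44 (SE 0.20, limma adjusted p = 9.7e-05), from 24.7 ± 4.35 against 1.36 ± 0.109 TPM (SD, n = 2 each). Ndn differed by 3.23 (SE 0.18, limma adjusted p = 9.4e-05) and Dlk1 by 2.92 (SE 0.49, limma adjusted p = 0.0044). Meg3 differed by 2.27 (limma adjusted p = 0.016) and Plagl1 by 2.03 (limma adjusted p = 0.025). Those 2 were the calls that did not hold throughout. The adjusted p of Meg3 was 0.09 without WT HSC library 2, 0.072 without WT KL library 2, 0.077 without WT KL library 3, 0.082 with a replicate block and 0.061 with no filter on low values. That of Plagl1 was 0.0982 and 0.0996 without WT KL library 2 or 3, 0.058 after centring each library on its median, 0.062 with only the 2 groups in the fit and 0.081 with no filter. Its difference ran from 1.14 without WT HSC library 2 to 2.93 without WT HSC library 1.

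The 3 genes that were not called between WT HSC and WT KL were Mest, Peg3 and Grb10. Mest differed by 3.31 (95% confidence interval 0.19 to 6.43, limma adjusted p = 0.089). Without WT HSC library 1 that difference was 5.71 and was called (limma adjusted p = 0.00085), and without WT HSC library 2 it was 0.91 (limma adjusted p = 0.081). With a pseudocount of 0.1 it was 5.19 (limma adjusted p = 0.036). Peg3 differed by 0.64 (0.01 to 1.26, limma adjusted p = 0.0982). Grb10 differed by 0.11 (-0.58 to 0.80, limma adjusted p = 0.794), and by -0.37 after each library was centred on its median.

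The third comparison, Evi1 HSC against WT KL, shares the WT KL libraries with the second and the Evi1 HSC libraries with the first, so it is no independent repeat of either. Over 9 libraries 0 of the 10 genes were called (limma adjusted p from 0.31 to 0.999) beside 0.0103% of all genes. By unadjusted limma values under 0.05 only Mest passed there, with a difference of 4.69 (unadjusted 0.0064). At that level 2956 of all 19461 genes passed, so 1 of 10 is not above the share over all genes. Over 7 libraries 7 of the 10 rose in Evi1 HSC and none fell, where 45.5% of all genes were called and 31.3% were higher. Of all genes 6087 were higher and 2776 lower, against 3534 and 5719 after centring, with the median of all genes at 0.278 and -0.189. The 7 were H19, Igf2, Cdkn1c, Ndn, Dlk1, Meg3 and Mest, so Mest took the place that Plagl1 had in the second comparison. Igf2, Ndn, Meg3 and Mest were below 1 TPM in WT KL libraries 2 and 3 and passed the filter through other libraries. This count too is therefore a description only. The median difference was 2.76, beside 0.28 over all genes.

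Igf2 differed by 5.63 (limma adjusted p = 8.9e-05) and H19 by 5.23 (limma adjusted p = 6.7e-05) between Evi1 HSC and WT KL. Mest differed by 5.36 (SE 1.20, limma adjusted p = 0.011), with group means of 46.4 ± 10.5 TPM (SD, n = 3) and 0.137 ± 0.0643 TPM (SD, n = 2). Without WT KL library 2 or 3 the adjusted p of Mest was 0.06 and 0.064. Cdkn1c differed by 3.76 (limma adjusted p = 3.3e-05), Ndn by 3.16 (limma adjusted p = 4.1e-05), Dlk1 by 2.36 (limma adjusted p = 0.0054) and Meg3 by 2.34 (limma adjusted p = 0.008). The adjusted p of Meg3 was 0.053 without WT KL library 3. Plagl1 differed by 1.39 and was not called (limma adjusted p = 0.055). It was called without WT HSC library 1 or 2 and with only the 2 groups in the fit (limma adjusted p = 0.005 each), with a replicate block (limma adjusted p = 0.041), and with a pseudocount of 0.1, where its difference was 3.99 (limma adjusted p = 0.0041). Peg3 differed by 0.66 (limma adjusted p = 0.06), and its adjusted p was 0.049 without WT HSC library 1 and 0.05 with only the 2 groups in the fit. Grb10 differed by 0.11 (-0.52 to 0.74), and by -0.35 after centring.

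**Figure D4:**
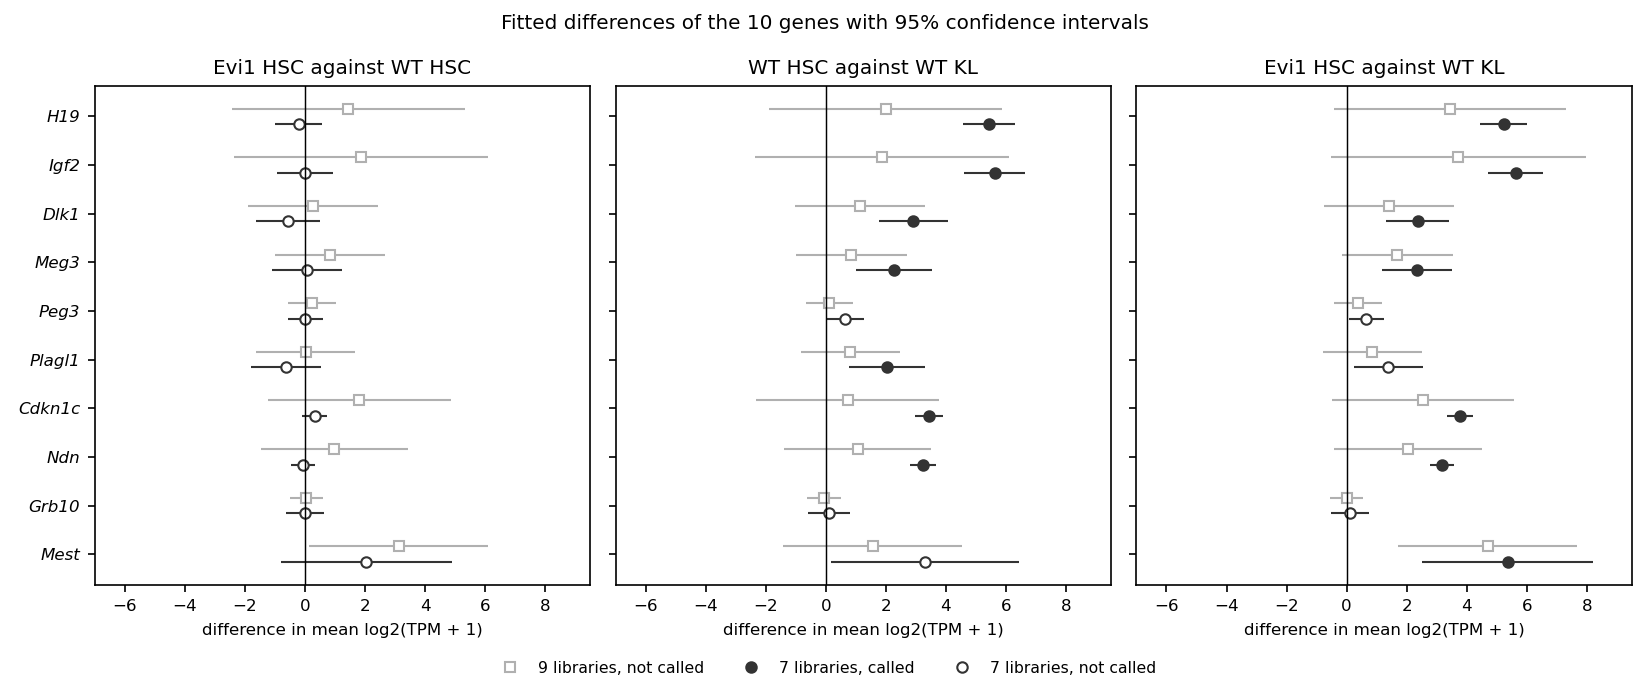
Fitted differences in mean log2(TPM + 1) of the 10 genes with 95% confidence intervals, in the 3 comparisons, over 9 libraries (squares) and 7 libraries (circles, filled where called). Over 7 libraries the intervals of Evi1 HSC against WT HSC all include 0, whereas H19, Igf2, Cdkn1c and Ndn lie between 3.16 and 5.63 above WT KL in both HSC groups.

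Markers of other liver cells that could carry imprinted transcripts were read in the same libraries. Hepatoblasts and stromal cells of the fetal liver are known to express H19, Igf2 and Dlk1 strongly. The sort for c-Kit+Lin- cells, with CD150, Sca-1 and CD48 added for HSC, is meant to leave such cells out. Its purity was not measured here. Summed over 12 hepatocyte markers, the level was 15.9, 15.2 and 10.9 TPM in the Evi1 HSC group, 9.37 and 23.3 TPM in WT HSC libraries 1 and 2, and 4.91 and 2.97 TPM in WT KL libraries 2 and 3. WT HSC-labelled library 3 held 3.4 TPM and WT KL-labelled library 1 held 38.8 TPM. The sum was thus higher in the libraries with high H19, and the 2 sets of values did not overlap. Trf, which is also used by other cells, was the largest term in the Evi1 HSC and WT HSC libraries, at 6.03 to 19.2 TPM outside WT HSC-labelled library 3. Of the defining hepatocyte genes, Alb was at 0.14 to 3.18 TPM in the Evi1 HSC and WT HSC libraries and 10.4 TPM in WT KL-labelled library 1. Afp, Ttr and Apoa1 were also highest in that library, at 6.86, 2.5 and 1.91 TPM, and Afp was at 2.35 TPM in Evi1 HSC library 1. Hnf4a was at 1.79 to 2.1 TPM in the Evi1 HSC group and at 0.235 and 0.417 TPM in WT KL libraries 2 and 3. Apob, Ahsg, Fgb and Serpina1a were each listed at 0 in 5 of 9 libraries. They did not pass 0.346 TPM and were highest in WT KL-labelled library 1. H19 was highest in Evi1 HSC library 3, where Alb was at 0.14 TPM. In WT KL-labelled library 1, with the most Alb, H19 was at 323 TPM. Alb was lowest in WT KL library 2, at 0.0344 TPM, where H19 was at 7.78 TPM. Summed over 11 stromal markers, the level was 0.827 to 2.22 TPM in all 9 libraries, and Dcn, Lum and Ngfr were each at 0 in 8 of them. The part of hepatocyte RNA in the levels of H19, Igf2 and Dlk1 was not tested.

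The other imprinted genes give the setting of the 10. Of 18 further genes listed as expressed from the maternal allele, 10 passed the filter, and of 25 listed for the paternal allele that matched by symbol, 17 did. Whether each is imprinted in these cells was not measured. Between Evi1 HSC and WT HSC limma called 0 of these 27 over either set of libraries, with medians of -0.03 and -0.05 over 7 libraries. At an unadjusted p under 0.05 there were 1 maternally and 1 paternally expressed gene over 9 libraries, and 0 and 2 over 7. All 19461 genes gave 907 and 1635 at that level, over 9 and 7 libraries. Against WT KL, limma called 0 of the 27 over the 9 libraries as labelled, with 0 at an unadjusted p under 0.05 for WT HSC, and 1 maternally and 3 paternally expressed genes for Evi1 HSC. All 19461 genes gave 282 and 2956 there. Between WT HSC and WT KL over 7 libraries, 4 maternally expressed genes rose and 1 fell of 10, and 7 paternally expressed genes rose and 0 fell of 17. For Evi1 HSC against WT KL the counts were 6 and 0 of 10, and 8 and 1 of 17. Over all genes 26.7% and 31.3% were higher in these 2 comparisons. Of the genes past the filter, 4 maternally and 5 paternally expressed ones reached 1 TPM in 6 libraries or fewer, so that they passed through the libraries where they were high. These made up 2 of the 4 and 5 of the 7 rises in WT HSC, and 4 of the 6 and 5 of the 8 in Evi1 HSC, so the counts are a description only.

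**Figure D5:**
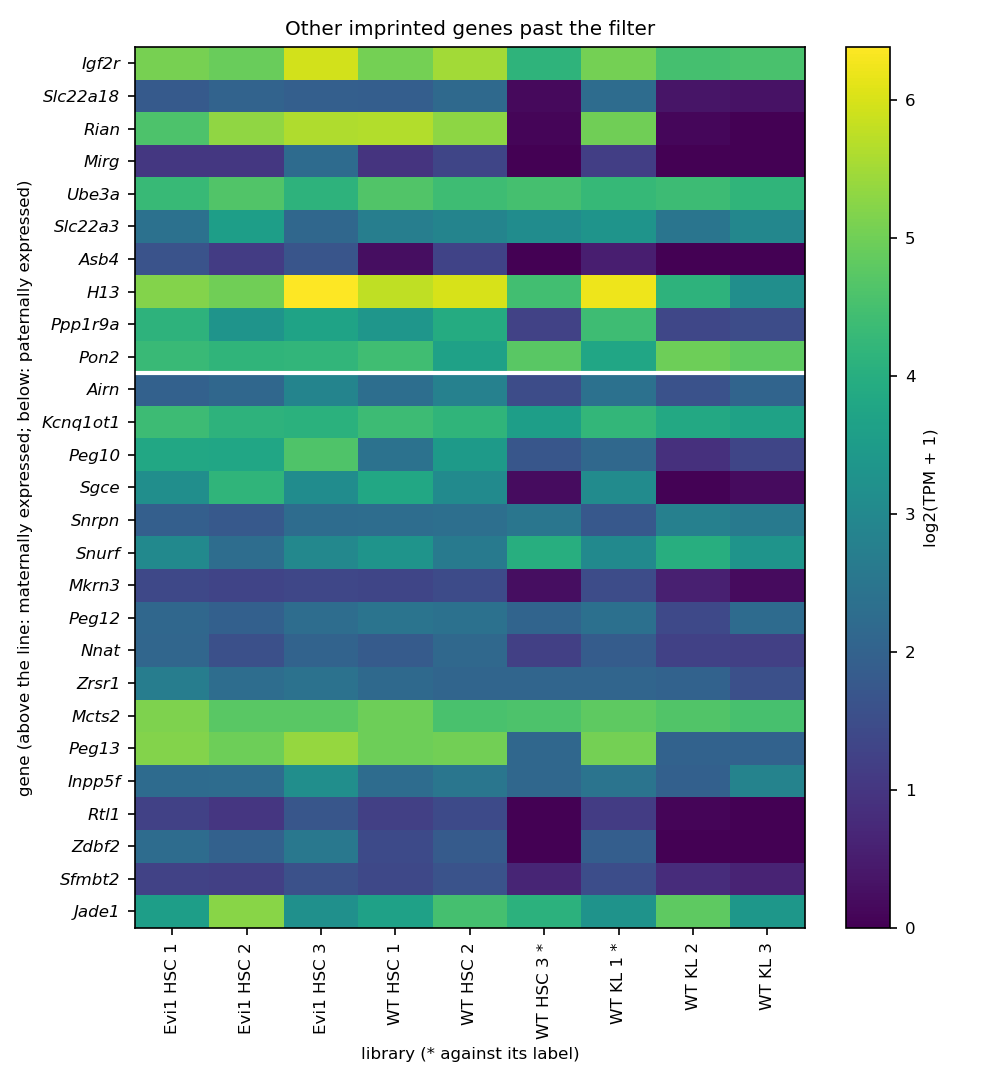
Heat map of log2(TPM + 1) of the 27 other imprinted genes past the filter (rows) in the 9 libraries (columns; an asterisk marks the 2 libraries against their labels). Rian, Peg13 and Sgce split the libraries as H19 did, while Ube3a, Kcnq1ot1, Mcts2 and Igf2r were present in every library.

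Over 7 libraries Rian differed most among the maternally expressed genes, by 5.42 in WT HSC (SE 0.33, limma adjusted p = 0.00012) and 5.12 in Evi1 HSC (limma adjusted p = 5.6e-05) against WT KL. Over 9 libraries it differed by 1.97 and 3.47 and was not called (limma adjusted p = 0.963 and 0.31). The differences of the other genes below are those over 7 libraries, and none of them was called over 9. H13, which encodes a signal peptide peptidase, differed by 2.24 and 1.88, and Ppp1r9a, which encodes an actin-binding scaffold, by 2.20 and 2.29. Pon2, a lactonase gene, fell by 0.85 in WT HSC against WT KL (limma adjusted p = 0.039). Among the paternally expressed genes, Sgce (epsilon-sarcoglycan) was at 7.35 to 17.1 TPM in the Evi1 HSC group and in WT HSC libraries 1 and 2, and at 0.0301 and 0.138 TPM in WT KL libraries 2 and 3. It differed by 3.33 and 3.36 from WT KL. Peg13, a noncoding RNA, was at 30.2 to 40.5 TPM in those HSC libraries and at 3.05 and 3.03 TPM in WT KL libraries 2 and 3, a difference of 2.98 and 3.16. Peg10, a gene derived from a retrotransposon and next to Sgce, differed by 1.83 and 2.96. Snrpn, which encodes a splicing factor, fell by 0.70 in Evi1 HSC against WT KL (limma adjusted p = 0.028). The genes listed as imprinted thus did not all move one way. Ube3a, a ubiquitin ligase gene chosen after its values were seen, was at 16.5 to 24.3 TPM in all 9 libraries.

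Genes of insulin-like growth factor signalling were read because IGF2 acts through them and GRB10 on them. Of 25 genes 19 passed the filter. Limma called none between Evi1 HSC and WT HSC over 9 or 7 libraries, with a median of 0.05 over 7 and 2 genes at an unadjusted p under 0.05 in each set. Against WT KL over 9 libraries limma called 0, with 0 at an unadjusted p under 0.05 for WT HSC and 5 for Evi1 HSC. All 19461 genes gave 282 and 2956 at that level. Between Evi1 HSC and WT HSC they gave 907 over 9 libraries and 1635 over 7. Between WT HSC and WT KL over 7 libraries 9 rose and 1 fell, where 37.5% of all genes were called and 26.7% were higher. Between Evi1 HSC and WT KL 11 rose and 2 fell, where 45.5% were called and 31.3% were higher. Of the 19 genes 3, Igf1 among them, reached 1 TPM in 6 libraries or fewer and passed the filter through libraries where they were high. These made up 1 of the 9 rises in WT HSC and 3 of the 11 in Evi1 HSC, so the counts are a description only. The differences that follow are over 7 libraries. Igf2bp2, which encodes an RNA-binding protein that binds Igf2 mRNA, was at 51.1 to 64.2 TPM in the Evi1 HSC group and in WT HSC libraries 1 and 2. It was at 0.968 and 1.96 TPM in WT KL libraries 2 and 3, a difference of 4.46 for WT HSC and 4.64 for Evi1 HSC (limma adjusted p = 6.9e-05 and 2.4e-05). Its paralogues Igf2bp1 and Igf2bp3 were at 20.1 to 29.0 TPM and 10.4 to 19.6 TPM over the 9 libraries. Igf1, the other ligand, differed by 3.34 and 3.32, Insr (the insulin receptor) by 2.0 and 1.89, and the FOXO factor gene Foxo1 by 1.75 and 1.88. Pik3r1, a regulatory subunit of PI3 kinase, differed by 1.71 in WT HSC.

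Igf1r, Igf2r and Akt2 lie outside the naming rule and were chosen after their values were seen. Igf1r, the signalling receptor, was at 48.8 to 70.5 TPM in the Evi1 HSC libraries and WT HSC libraries 1 and 2, and at 33.0 and 26.7 TPM in WT KL libraries 2 and 3. It rose by 0.94 in WT HSC (limma adjusted p = 0.011) and by 0.99 in Evi1 HSC (limma adjusted p = 0.0046). Igf2r, itself imprinted and the receptor that clears IGF2, differed by 0.74 and 0.79 and was not called (limma adjusted p = 0.13 and 0.078). Irs2, a docking protein of these receptors, ran against the list. It was at 0.632 to 2.66 TPM in those HSC libraries and at 10.2 and 11.1 TPM in WT KL libraries 2 and 3, and fell by 1.68 in WT HSC and by 2.44 in Evi1 HSC. Akt2 fell by 1.36 in Evi1 HSC against WT KL (limma adjusted p = 0.031).

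Cdkn1c was set beside the other inhibitors of the cell cycle. Of 9 genes of the CIP/KIP, INK4 and pocket protein families, 6 passed the filter. Limma called none between Evi1 HSC and WT HSC over 9 or 7 libraries, with 0 at an unadjusted p under 0.05. Against WT KL over 9 libraries limma called 0, with 1 at an unadjusted p under 0.05 for WT HSC and 2 for Evi1 HSC. All 19461 genes gave 282 and 2956 at that level. Between Evi1 HSC and WT HSC they gave 907 over 9 libraries and 1635 over 7. Over 7 libraries 3 of the 6 rose in WT HSC, where 37.5% of all genes were called and 26.7% were higher. In Evi1 HSC 3 rose and 1 fell, where 45.5% were called and 31.3% were higher. The differences that follow are over 7 libraries. Cdkn1b (p27) was at 9.66 to 19.4 TPM in the Evi1 HSC group and in WT HSC libraries 1 and 2, and at 5.52 and 3.56 TPM in WT KL libraries 2 and 3. It differed by 1.20 and 1.64 (limma adjusted p = 0.014 and 0.0021). Cdkn2d, an INK4 inhibitor, differed by 1.48 and 1.81, and Rbl2, a pocket protein, by 1.12 and 1.08. Cdkn1a (p21) was at 1.09 TPM or less in every library, and Cdkn2c, named after its value was seen, fell by 0.85 in Evi1 HSC. Cdkn2c reached 1 TPM only in the 3 libraries labelled WT KL and passed the filter through them. Over 7 libraries Cdkn1c, at 3.44 and 3.76, thus had a larger fitted difference from WT KL than any of these.

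Genes that keep imprints in place were read last. Of 9 such genes 8 passed the filter. Limma called 0 in the 3 comparisons over 9 libraries, with 0 at an unadjusted p under 0.05, and 0 between Evi1 HSC and WT HSC over 7 libraries, with 1 at an unadjusted p under 0.05. All 19461 genes gave 907, 282 and 2956 over 9 libraries at that level, and 1635 in the comparison over 7. Between WT HSC and WT KL over 7 libraries 2 rose and 2 fell of 8, where 37.5% of all genes were called. Between Evi1 HSC and WT KL 1 rose and 1 fell, where 45.5% were called. Zfp57 was the 1 gene that rose there and 1 of the 2 that rose in WT HSC. It reached 1 TPM in 6 libraries only and passed the filter through those, where it was high, so the counts are a description only. The differences that follow are over 7 libraries. Dnmt1, the maintenance DNA methyltransferase, was at 84.6 to 98.2 TPM in all 9 libraries, and Trim28, the corepressor recruited by ZFP57, at 244 to 306 TPM. Uhrf1, which guides DNMT1 to newly copied DNA, fell by 0.64 in WT HSC and by 0.55 in Evi1 HSC (limma adjusted p = 0.0094 and 0.0092). Smchd1 fell by 0.91 in WT HSC (limma adjusted p = 0.049), and Zfp445 rose by 0.67 there (limma adjusted p = 0.048). Zfp57, whose protein binds the methylated TGCCGC element of imprinted control regions, is outside the naming rule and picked once its values were known. Its level was 2.93, 2.46 and 4.73 TPM in the Evi1 HSC group and 2.34 and 2.08 TPM in WT HSC libraries 1 and 2, at 2.91 TPM in WT KL-labelled library 1, and listed at 0 in the other 3.

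The promoters of the 10 genes were searched for TGCCGC on both strands. RefSeq (GRCm38.p6) gave 15 windows of 300 bases, from 250 before to 50 after a start, for 8 of the 10 genes, with none for H19 and Cdkn1c. The element was found in 6 of the 15 windows, in Mest, Igf2, Plagl1, Grb10 and Meg3, while 11.6% of all 32851 windows hold it. TGCCGC contains a CpG pair, and the windows with a match held 13 to 45 CpG pairs, beside a median of 7 over all windows. Some genes also have several windows, so the 11.6% is no matched background. The part of base composition was not tested. Both Mest windows with a match overlap by all but 3 bases. The 250 bases before the start are shown for the genes with a match there, from 5′ to 3′ on the plus strand, with each match in capitals as its reverse complement.
Plagl1, chr10:13090582-13090831: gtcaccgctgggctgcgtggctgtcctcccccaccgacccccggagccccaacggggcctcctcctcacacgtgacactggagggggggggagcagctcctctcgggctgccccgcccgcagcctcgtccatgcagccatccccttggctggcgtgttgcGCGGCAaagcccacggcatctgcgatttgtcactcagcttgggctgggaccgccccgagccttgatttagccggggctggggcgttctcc
Mest, chr6:30737800-30738049: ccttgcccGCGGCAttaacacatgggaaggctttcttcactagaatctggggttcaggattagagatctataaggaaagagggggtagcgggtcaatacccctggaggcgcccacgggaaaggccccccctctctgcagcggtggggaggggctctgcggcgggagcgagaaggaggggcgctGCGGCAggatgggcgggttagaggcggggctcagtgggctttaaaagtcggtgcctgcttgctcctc
Meg3, chr12:109540746-109540995: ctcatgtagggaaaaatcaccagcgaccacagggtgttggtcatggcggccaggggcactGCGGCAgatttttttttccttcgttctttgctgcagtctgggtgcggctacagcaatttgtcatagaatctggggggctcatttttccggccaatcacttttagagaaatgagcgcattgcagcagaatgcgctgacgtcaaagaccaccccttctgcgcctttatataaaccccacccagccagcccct
In Plagl1 the match begins 90 bases before the start, in Mest 242 and 67 bases, and in Meg3 190 bases. The Plagl1 stretch holds 19 CpG pairs, that of Mest 14 and that of Meg3 10. A match is a string of letters and not a bound site, and neither methylation nor binding was measured here. GACAAGATA, the core element of the first zinc finger domain of EVI1, searched in the same way, was in 0 of the 15 windows and in 0.119% of all windows, which says nothing of EVI1 elsewhere in these loci.

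Across the 9 libraries the 10 genes were read against each other and against all other genes, as a description of how alike their patterns were. Pearson's r of log2(TPM + 1) was 0.997 for H19 and Igf2, 0.988 for H19 and Ndn and 0.979 for Cdkn1c and Ndn. Over 7 libraries these were 0.998, 0.985 and 0.988. With Grb10, r was 0.079 to 0.508 for the other 9 genes over 9 libraries and -0.083 to 0.461 over 7. The points share the division of the libraries into 6 with and 3 without high stem cell markers, and they are not independent of it. Among genes with a mean of 10 TPM or more, the 3 most alike over 9 libraries were Tor4a, Ppic and Igf2 for H19 (r = 0.9977, 0.9977 and 0.9973), and Tor4a, Tgfbr2 and H19 for Igf2. For Cdkn1c they were Eng, Wls and Laptm4b, and for Ndn they were Gimap5, Mmrn1 and Il16, with r of 0.9961 to 0.9986. For Dlk1 they were Ppp2r3d, Dnmt3a and Impdh1, for Meg3 Usp12, Cnot8 and Crkl, for Peg3 Pdcd4, Tia1 and Supt20, and for Plagl1 Cep170, Iqsec1 and Nceh1. For Mest they were Fnbp4, Tmem87a and Inpp5b, with r of 0.9745 for Fnbp4. Grb10 was most like Myl6, Fgfr1op2 and Jkamp (r = 0.9398 for Myl6), which were lowest in Evi1 HSC library 3 as Grb10 was. Nceh1, alike to Plagl1, was at 36.9 and 49.4 TPM in Evi1 HSC library 2 and WT HSC library 2, and at 36.1 TPM in WT KL-labelled library 1. It was at 10.4 to 12.9 TPM in Evi1 HSC libraries 1 and 3 and WT HSC library 1.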

How the data were processed

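The 9 libraries of RNA from sorted fetal liver cells were used as the gene-level TPM values the authors deposited, 1 table per library, per the file headers. In 1 table (WT HSC replicate 2) the value column has another heading and was used as TPM because its sum and range match the other 8. The submitters' processing notes name HISAT2, StringTie and mm10. The sources used here give neither their roles nor versions, nor whether strand was used. Listed TPM summed to 56.9 to 63.8% of the full TPM scale per library. TPM keeps no read depth, so no counting interval is given. Reads come from 100 cells, whose lysate went directly into cDNA synthesis.

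Values were taken as log2(TPM + 1) and fitted with limma 3.58.1 (R 4.3.3; 1 mean per group, moderated variance with trend) over the 19461 of 55488 genes that reached 1 TPM in 3 or more libraries, with Benjamini-Hochberg adjustment over all of them. Each fit was made over 9 libraries and over 7, leaving out the 2 against their labels. The script was tested on data simulated with the spread within groups of the 7 libraries, so that test does not cover the spread over 9. Alternatives were the pseudocount, the filter, centring, the trend, a replicate block, the groups in the fit and leaving out each library. The genes and lists were chosen with earlier results of these data known. Of each list, called genes with a mean of 5 TPM or more in the higher group were named, at most 6 per comparison by size of difference; others are said to be chosen after their values were seen. A gene that this rule picks in the insulin-like growth factor list is not reported here.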

Additional observations from a re-analysis of the deposited data

How the results depend on the processing

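Of 60 differences (10 genes, 3 comparisons, 2 sets of libraries), 40 had 1 sign in every alternative run. All 14 called ones did, and 10 of them were called in every alternative that gave a value. Meg3 and Plagl1 gave no value at a filter of 5 TPM.

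Over 9 libraries, the genes called for Evi1 HSC against WT HSC went from 1 to 0 with a pseudocount of 0.1 and to 3 with no filter, and ran from 1 to 3 without single libraries. For WT HSC against WT KL they went from 1 to 2 with no filter and ran from 1 to 4. For Evi1 HSC against WT KL they went from 2 to 1 with a pseudocount of 0.1, to 6 with no filter and to 4 with no trend, and ran from 2 to 96, the last without WT KL-labelled library 1. Over 7 libraries, the 40 genes called for Evi1 HSC against WT HSC became 73 with no filter, 6 with only the 2 groups and 0 with a replicate block, and ran from 5 to 27 without single libraries, with 0 to 1 of the 10 genes called. Without single libraries, the 7307 called for WT HSC against WT KL ran from 4291 to 7324, and the 8863 called for Evi1 HSC against WT KL from 5641 to 8703.

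Signs turned after centring for Plagl1 (-0.15) and Grb10 (-0.13) in Evi1 HSC against WT HSC over 9 libraries, and for Grb10 over 7 libraries against WT KL (-0.37 for WT HSC, -0.35 for Evi1 HSC). Igf2 in Evi1 HSC against WT HSC over 7 libraries was -0.00099 with a pseudocount of 0.1 and -0.26 with a replicate block, and Grb10 in WT HSC against WT KL was -0.08 with that block. Without single libraries, over 9 libraries, Evi1 HSC against WT HSC ran from -0.21 to 2.39 for H19, -0.56 to 0.89 for Dlk1, -0.64 to 0.81 for Plagl1, -0.07 to 1.55 for Ndn and -0.11 to 0.32 for Grb10. WT HSC against WT KL ran from -0.13 to 0.42 for Peg3, -0.10 to 2.22 for Cdkn1c, -0.18 to 0.06 for Grb10 and -0.18 to 2.63 for Mest, and Evi1 HSC against WT KL from -0.16 to 0.27 for Grb10. Over 7 libraries, Evi1 HSC against WT HSC ran from -0.54 to 0.02 for H19, -0.39 to 0.34 for Igf2, -0.37 to 0.48 for Meg3, -0.25 to 0.29 for Peg3, -1.54 to 0.25 for Plagl1, -0.16 to 0.02 for Ndn, -0.19 to 0.27 for Grb10 and -0.35 to 4.45 for Mest. Grb10 ran from -0.09 to 0.31 for WT HSC and -0.05 to 0.38 for Evi1 HSC against WT KL. The cause was not tested.

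Deviations of same-numbered libraries from their group means correlated at -0.636 to 0.704 over 9 libraries. Those means include the 2 libraries against their labels. Over 7 libraries the correlations were -0.062 to -0.007, with few same-numbered pairs left. These values cannot show whether replicate numbers pair the samples. With the replicate block over 7 libraries 0, 4947 and 7526 genes were called in the 3 comparisons, and 0, 6 and 8 of the 10. A lone library left in a group is assumed to vary as the others do. TPM holds no depth, so the precision of values near 0 is unknown.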
